A study of Mus musculus with 10 samples.

Results

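The 8 genes described here, Csf1r, Itgam, Cd68, Laptm5, Mpeg1, Unc93b1, Ms4a7 and F13a1, are genes by which macrophages are commonly recognised, read in macrophages and in tumor cells sorted from the same kind of mouse mammary tumor. They were taken by gene name from the authors' deposited tables of genes that differ between genotypes. Each gene has 1 probeset there, and further probesets of these genes without a name could not be sought. They make up 8 of 251 probesets that carry a gene name and 8 of 35556 probesets in all. The authors' table for tumor cells lists all 8, and their table for macrophages lists 0. The titles of both tables name a cell type and call the genes unique, which may mean unique to that cell type. What was meant is not stated in the sources used here, nor how it was decided. Through the tumor cell table, the 8 genes were chosen on their difference between tumor cells of the genotypes. The choice may also have favoured genes that do not differ between TAMs. Both genotype differences are given below as descriptions, and nothing is supported with them.

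The arrays fall into 4 groups. CD206hi tumor-associated macrophages (TAMs), which carry much of the mannose receptor CD206 on their surface, came from b3KOM mice, whose macrophage lineage lacks integrin beta3 (3 arrays), and from wild-type (WT) mice (3 arrays). PyMT-BO1-GFP-Luc cells, mammary tumor cells that carry luciferase and green fluorescent protein, came from b3KOM hosts (2 arrays) and from WT hosts (2 arrays). In every group 100000 of these cells had been placed in the mammary fat pad and the tumor was taken on day 10, so all groups come from tumor-bearing animals and the tumor cells themselves are of the same line in both hosts. Cells were sorted and their RNA was extracted without culture, and 50 ng of RNA was amplified for each Affymetrix array. The sources used here do not state the Cre driver of the deletion, the strain and age of the mice, or how many mice stand behind an array. P-values therefore measure only how far these arrays differ from each other, which may in part be technical.

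Macrophages are phagocytes that engulf cells, particles and proteins and digest them in lysosomes. Most of them depend on signals through the receptor encoded by Csf1r for survival and differentiation, and the transcription factor PU.1 switches on many of their genes. In mammary tumors macrophages are an abundant immune population, and those with much CD206 are often grouped with the alternatively activated kind. The genes below cover that receptor (Csf1r), adhesion (Itgam), lysosomes and killing of engulfed microbes (Cd68, Laptm5, Mpeg1), endosomal sensing of nucleic acids (Unc93b1), a membrane protein of unsettled function (Ms4a7) and a secreted crosslinking enzyme (F13a1).

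Values are log2 units made by RMA, in which arrays are quantile-normalised, so 1 unit is a doubling. Over all probesets, Pearson's r between pairs of TAM arrays was 0.981 to 0.985, between pairs of tumor cell arrays 0.990 to 0.993, and across the cell types 0.909 to 0.923. The median of the value table, 4.19, was taken as a level near background, and 20246 probesets that exceeded it on at least 2 arrays were tested, all 8 genes among them. Of the genes that define the labelled cells, Mrc1, which encodes CD206, and Adgre1, which encodes F4/80, are not among the named probesets and were not analysed here, nor was Itgb3, so the deletion could not be checked on these arrays. Gja1, which encodes connexin 43, is named through the macrophage table and belongs to the epithelial list. It averaged 7.85 in b3KOM TAMs and 7.38 in WT TAMs, against 10.49 in tumor cells from b3KOM hosts and 10.42 in tumor cells from WT hosts.

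The promoters of these genes are shown because all of the genes were higher in TAMs than in tumor cells. The RefSeq windows (build GRCm38.p6) used here run from 250 bases before a transcript start to 50 bases after it. They cover 6 of the 8 genes, 8 windows in all. For Unc93b1 no window was available, while Csf1r was left out of the search. Both genes are therefore named only and do not enter the counts of matches for these genes. The windows were searched on both strands for GAGGAA, the purine-rich core to which PU.1 binds, a search chosen with the sequences at hand. At least 1 match lay in 6 of the 8 windows, against 28.3% of the 32851 windows in the RefSeq table, and in 5 of the 6 genes, against 31.3% of the 27025 genes there. Below, the capitals mark each match, GAGGAA as read on the printed strand or TTCCTC where it lies on the other.
Itgam, chr7:128062390-128062689, plus strand: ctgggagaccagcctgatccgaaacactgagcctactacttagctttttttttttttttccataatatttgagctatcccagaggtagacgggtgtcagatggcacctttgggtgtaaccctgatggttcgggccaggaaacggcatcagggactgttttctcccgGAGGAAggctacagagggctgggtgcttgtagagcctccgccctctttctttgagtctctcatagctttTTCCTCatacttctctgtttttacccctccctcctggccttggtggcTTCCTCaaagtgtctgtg
Cd68, chr11:69666121-69666420, minus strand: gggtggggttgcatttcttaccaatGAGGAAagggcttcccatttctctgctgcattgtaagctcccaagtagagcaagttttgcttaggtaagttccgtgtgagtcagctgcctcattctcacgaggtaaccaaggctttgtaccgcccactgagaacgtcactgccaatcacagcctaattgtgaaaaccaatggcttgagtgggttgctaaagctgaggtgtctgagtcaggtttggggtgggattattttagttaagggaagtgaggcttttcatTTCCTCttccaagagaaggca
Laptm5, chr4:130913066-130913365, plus strand: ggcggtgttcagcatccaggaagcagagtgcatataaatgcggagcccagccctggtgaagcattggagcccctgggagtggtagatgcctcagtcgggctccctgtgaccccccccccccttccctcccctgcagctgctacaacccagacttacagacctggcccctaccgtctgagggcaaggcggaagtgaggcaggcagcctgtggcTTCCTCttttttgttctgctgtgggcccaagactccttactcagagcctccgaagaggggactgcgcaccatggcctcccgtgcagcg
F13a1, chr13:37050195-37050494, minus strand: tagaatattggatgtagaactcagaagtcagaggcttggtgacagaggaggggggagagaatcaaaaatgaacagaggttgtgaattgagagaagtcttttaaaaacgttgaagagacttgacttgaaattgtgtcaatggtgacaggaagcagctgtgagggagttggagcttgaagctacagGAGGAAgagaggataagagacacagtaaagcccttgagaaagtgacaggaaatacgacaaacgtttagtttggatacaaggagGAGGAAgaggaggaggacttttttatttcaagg
In Itgam 3 matches were found, which begin 84 and 15 bases before the start and at base 33 after it. Laptm5 had 1, which begins 38 bases before its start, and Cd68 had 2, far upstream and at base 30 of the transcript. In F13a1 the matches begin 66 bases before the start and at base 18 after it, the second inside a run of GAGGAG repeats, and a further F13a1 window held 1 match at base 15. Ms4a7 had 1 match in 1 of its 2 windows and Mpeg1 had none in these 300 bases. A match is a stretch of letters and not a measured binding site. Because the search was chosen with the sequences at hand, nothing is read from the counts of matches.

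Csf1r encodes the receptor for macrophage colony-stimulating factor, a growth factor of the lineage. Its probeset (10456071) read 10.78, 10.94 and 10.84 in b3KOM TAMs and 10.92, 10.78 and 10.86 in WT TAMs. In tumor cells it read 5.38 and 5.44 from b3KOM hosts and 4.98 and 4.94 from WT hosts. The TAM arrays of the genotypes overlapped, while both tumor cell arrays from b3KOM hosts lay above both from WT hosts. Csf1r was 5.67 ± 0.06 (SE) log2 units, or 51.0-fold, higher in TAMs than in tumor cells, the largest difference among the 8 genes. The b3KOM minus WT difference was 0.00 ± 0.08 (SE) in TAMs, with a 95% interval of -0.18 to 0.19, and 0.45 ± 0.10 (SE) in tumor cells, the smallest of the 8. These are whole sorted populations, so a change in the number of cells of a type and a change in RNA per cell cannot be told apart.

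Itgam encodes CD11b, the integrin alpha chain that pairs with CD18 to form the complement receptor Mac-1 and carries phagocytes through tissue. It read 10.42, 10.44 and 10.41 in b3KOM TAMs, a spread of 0.016 (SD, n = 3), and 10.30, 10.26 and 10.50 in WT TAMs, a spread of 0.132 (SD, n = 3). WT replicate 3 was the highest of the TAM arrays and WT replicate 2 the lowest, so the b3KOM arrays lay within the WT range. Tumor cells read 5.0 and 5.15 from b3KOM hosts and 4.58 and 4.45 from WT hosts, without overlap. Itgam was 5.59 ± 0.07 (SE) log2 units above tumor cells in TAMs. Its b3KOM minus WT difference was 0.07 ± 0.09 (SE) in TAMs and 0.56 ± 0.12 (SE) in tumor cells. The difference in TAMs was 0.14 without WT replicate 3 and 0.02 without WT replicate 2.

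Among the lysosomal genes, Cd68 encodes a heavily glycosylated protein of late endosomes and lysosomes that is widely stained for as a macrophage marker. It read 11.78, 11.69 and 11.58 in b3KOM TAMs and 11.66, 11.64 and 11.72 in WT TAMs. The highest and the lowest TAM array were both b3KOM, and the WT arrays lay between them. In tumor cells Cd68 read 6.69 and 6.88 from b3KOM hosts and 6.13 and 6.12 from WT hosts. It was 5.22 ± 0.07 (SE) log2 units above tumor cells in TAMs, and the b3KOM minus WT difference was 0.01 ± 0.09 (SE) in TAMs and 0.66 ± 0.11 (SE) in tumor cells.

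Laptm5 encodes a lysosomal membrane protein of blood cells that directs receptors to degradation. It read 12.49, 12.49 and 12.42 in b3KOM TAMs and 12.45, 12.46 and 12.40 in WT TAMs, so the 6 arrays lay within 0.09 log2 units of each other, the narrowest range among the 8 genes. Tumor cells read 7.18 and 7.42 from b3KOM hosts and 6.48 on both arrays from WT hosts. The gap between the hosts was wider than the gap between the b3KOM arrays. Laptm5 was 5.56 ± 0.07 (SE) log2 units above tumor cells in TAMs. Its b3KOM minus WT difference was 0.03 ± 0.09 (SE) in TAMs and 0.82 ± 0.10 (SE), or 1.77-fold, in tumor cells, the largest of the 8.

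Mpeg1 encodes perforin-2, a pore-forming protein that phagocytes turn on engulfed bacteria. Its values were 10.09, 9.95 and 10.00 in b3KOM TAMs and 9.95, 9.98 and 10.23 in WT TAMs, where WT replicate 3 stood highest and the groups overlapped. Tumor cells read 5.76 on both arrays from b3KOM hosts and 5.19 and 5.26 from WT hosts. Mpeg1 had the smallest difference between the cell types of the 8 genes, at 4.54 ± 0.08 (SE) log2 units or 23.3-fold higher in TAMs. The b3KOM minus WT difference was -0.04 ± 0.10 (SE) in TAMs and 0.53 ± 0.12 (SE) in tumor cells.

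Unc93b1 encodes the membrane chaperone that carries nucleic acid-sensing Toll-like receptors from the endoplasmic reticulum to endosomes. Values were 10.49, 10.50 and 10.48 in b3KOM TAMs and 10.48, 10.55 and 10.44 in WT TAMs. The b3KOM arrays sat inside the WT range, with a spread of 0.010 (SD, n = 3). Tumor cells read 5.19 and 5.32 from b3KOM hosts and 4.82 and 4.71 from WT hosts, again without overlap. Unc93b1 was 5.48 ± 0.06 (SE) log2 units above tumor cells in TAMs, and the b3KOM minus WT difference was 0.00 ± 0.08 (SE) in TAMs and 0.49 ± 0.10 (SE) in tumor cells.

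Ms4a7 encodes a membrane-spanning protein of the MS4A family found in macrophages. It read 10.84, 10.78 and 10.63 in b3KOM TAMs and 10.59, 10.56 and 10.81 in WT TAMs. WT replicate 3 lay among the b3KOM arrays, and the other WT arrays lay below them. Tumor cells read 6.01 and 6.05 from b3KOM hosts and 5.60 and 5.48 from WT hosts. Ms4a7 was 4.92 ± 0.08 (SE) log2 units above tumor cells in TAMs. The b3KOM minus WT difference was 0.09 ± 0.10 (SE) in TAMs and 0.49 ± 0.12 (SE) in tumor cells. The difference in TAMs was 0.18 without WT replicate 3 and 0.05 without WT replicate 2.

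F13a1 encodes the A subunit of coagulation factor XIII, a transglutaminase that crosslinks fibrin and that macrophages make. It read 10.58, 10.67 and 10.42 in b3KOM TAMs and 10.59, 10.45 and 10.15 in WT TAMs, a range of 0.51 log2 units over the 6 arrays and the widest of the 8 genes. The lowest of these was WT replicate 3, and the groups overlapped. Tumor cells read 5.06 and 5.13 from b3KOM hosts and 4.55 and 4.63 from WT hosts. F13a1 was 5.63 ± 0.10 (SE) log2 units above tumor cells in TAMs. Its b3KOM minus WT difference was 0.16 ± 0.12 (SE) in TAMs, the largest of the 8 there. It depended on single arrays, at 0.04 without WT replicate 3, 0.26 without WT replicate 1, 0.10 without b3KOM replicate 2 and 0.23 without b3KOM replicate 3. In tumor cells the difference was 0.50 ± 0.15 (SE).

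**Figure D1:**
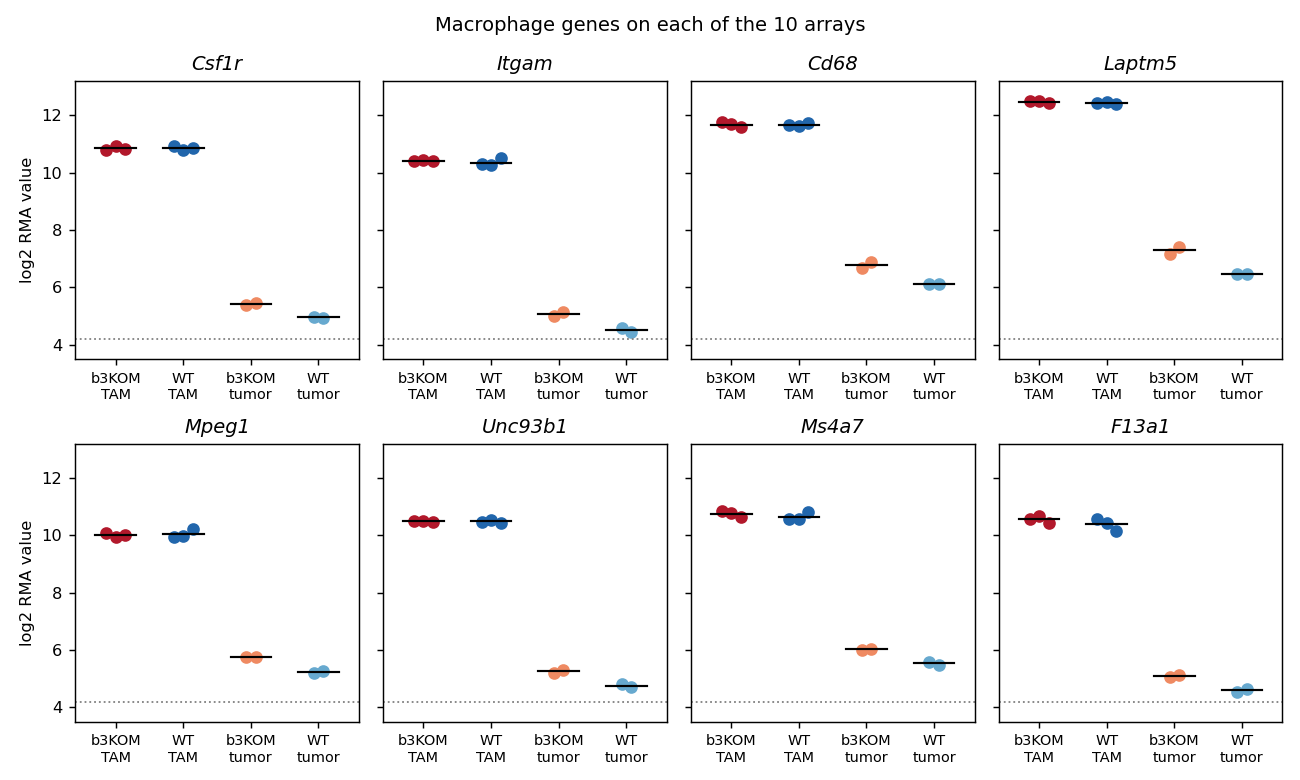
Log2 RMA value (y axis) of each gene on the 10 arrays, 1 point per array, by group (x axis: b3KOM TAMs, WT TAMs, tumor cells from b3KOM hosts, tumor cells from WT hosts). Black bars are group means and the dotted line is the table median of 4.19; all TAM points lie far above all tumor cell points, and in tumor cells the b3KOM points lie above the WT points in each panel.

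The comparison of TAMs with tumor cells shows how the 8 genes divide between the sorted populations. Every TAM array lay above every tumor cell array for 8 of 8 genes, which held for 20.8% of all tested probesets. With limma's test, 8 of 8 were higher in TAMs, with adjusted p from 3.21e-10 to 7.15e-10, where 24.9% of the tested probesets were called higher in TAMs. The median difference of the 8 was 5.52 log2 units, against -0.14 over all tested probesets. Ordered by size the differences ran from Csf1r through F13a1, Itgam, Laptm5, Unc93b1, Cd68 and Ms4a7 to Mpeg1. Csf1r had a larger difference than 99.84% of the tested probesets and Mpeg1 than 98.99%. In that order Csf1r, F13a1, Itgam and Laptm5 lay within 0.11 log2 units of each other, which is close to their standard errors of 0.06 to 0.10, and Mpeg1 and Ms4a7 stood below the other 6 by more than their errors. Since the genes were picked as macrophage genes with earlier results of these arrays known, these counts describe the genes and are no independent evidence of the direction.

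The comparison of b3KOM with WT TAMs asks whether loss of integrin beta3 shifts these genes in the macrophages themselves. If unique in the authors' table title means unique to tumor cells, small differences in TAMs may have been a condition of listing. The values are therefore a description. The arrays of the genotypes overlapped for 8 of 8 genes, while 8.80% of the tested probesets had arrays that did not overlap in TAMs. Limma called 0 of the 8, and 0 had an unadjusted p under 0.05, beside 0.0148% and 6.42% of the tested probesets, and nothing is read from these counts. The differences had a median of 0.02 over the 8 genes and 0.01 over all tested probesets, with 6 positive and 2 negative. A missed threshold does not show that the levels are equal. The upper limits of the 95% intervals were 0.18 for Unc93b1, 0.19 for Csf1r, 0.21 for Cd68, 0.23 for Laptm5, 0.18 for Mpeg1, 0.29 for Itgam, 0.32 for Ms4a7 and 0.44 for F13a1, and the lower limits ran from -0.26 for Mpeg1 to -0.12 for F13a1.

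In tumor cells both arrays from b3KOM hosts lay above both from WT hosts for 8 of 8 genes. The same held for 17.2% of the tested probesets, and nothing is read from the comparison, since the authors' deposited table was selected on these arrays and its largest p-value is 0.00996. Unc93b1, with a p-value of 0.00974 in the authors' deposited table, stood closest to that limit among the 8 genes, and Laptm5, with 0.00252, farthest inside it. Values just outside that limit are not listed in the table. The log2 fold changes in the authors' deposited table run as WT against b3KOM and are thus negative, from -0.45 for Csf1r to -0.81 for Laptm5. Computed from the arrays as b3KOM minus WT, the differences ran from 0.45 to 0.82 with a median of 0.52, against a median of 0.00 over all tested probesets. The sizes differed from those in the table by at most 0.0166. Over all tested probesets limma called 2 (0.00988%) in this comparison.

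The arrays from b3KOM hosts lay farthest apart for Laptm5, at 7.18 and 7.42, and read 5.76 alike for Mpeg1. Averaged over the 8 genes the arrays stood at 5.78 and 5.89 in cells from b3KOM hosts and 5.29 and 5.26 in cells from WT hosts. In TAMs the same average was 10.93, 10.93 and 10.85 in b3KOM and 10.87, 10.83 and 10.89 in WT.

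The TAM difference minus the tumor cell difference ran from -0.79 ± 0.14 (SE) for Laptm5 to -0.35 ± 0.20 (SE) for F13a1. This quantity contains the contrasts on which the genes were listed and is given without a test.

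**Figure D2:**
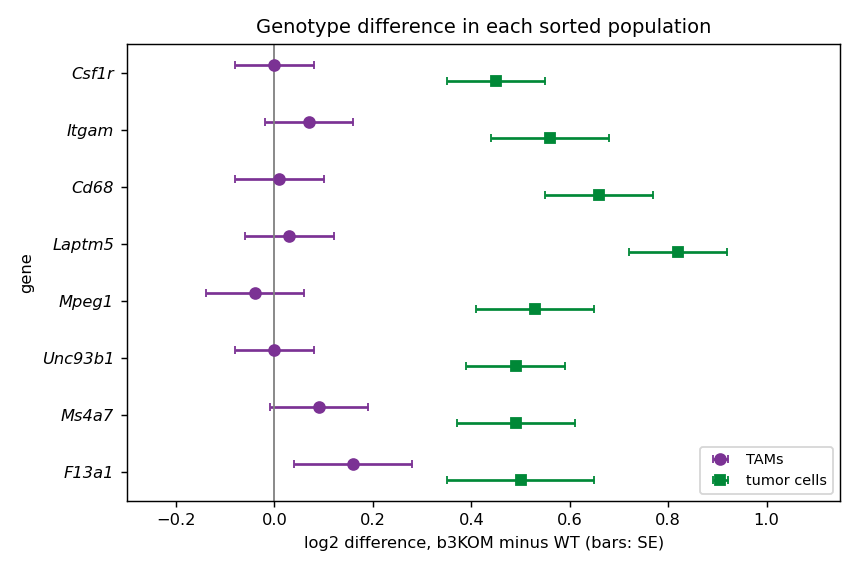
Log2 difference, b3KOM minus WT (x axis), of each gene (y axis) in TAMs (circles) and in tumor cells (squares), with bars of 1 SE from the fit over all 10 arrays. The TAM points lie between -0.04 and 0.16 and the tumor cell points between 0.45 and 0.82. The genes come from the authors' table for tumor cells, whose title calls them unique.

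On the linear scale the genes read a few percent of their TAM level in sorted tumor cells. Relative to the TAMs of the same genotype, levels had a median of 2.72% in cells from b3KOM hosts (2.27% for F13a1 to 5.24% for Mpeg1) and 1.84% in cells from WT hosts (1.61% for Laptm5 to 3.52% for Mpeg1). Mpeg1 and Ms4a7 had the highest percentages in both hosts, and Ms4a7 stood at 3.80% in b3KOM and 2.89% in WT hosts. The percentage is the difference between the cell types on another scale, so this restates that their difference was smallest. Against the mean TAM level of both genotypes, Laptm5 read 2.59% and 3.06% in cells from b3KOM hosts and 1.59% on both arrays from WT hosts. Csf1r read 2.25% and 2.34% in cells from b3KOM hosts and 1.70% and 1.65% in cells from WT hosts. The excess in cells from b3KOM hosts was 0.614 to 1.60 percentage points of the mean TAM level over the 8 genes, lowest for Csf1r and highest for Mpeg1, with a median of 0.972. All 8 genes lay above the table median on each tumor cell array, but Itgam (4.45) and F13a1 (4.55) came close to it. Background that RMA leaves in dim probesets raises such percentages and narrows differences, so they are no exact shares.

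**Figure D3:**
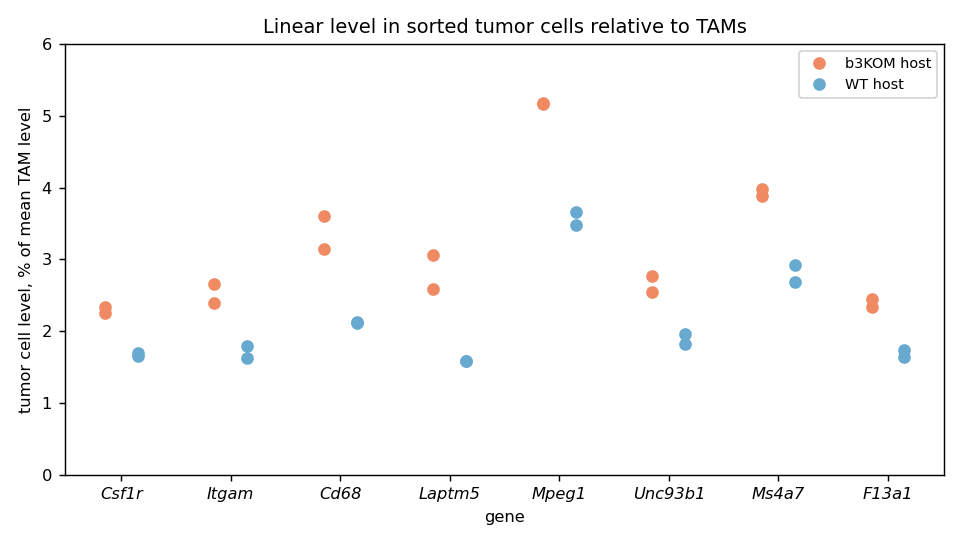
Level of each gene (x axis) on each tumor cell array as a percentage of its mean TAM level (y axis, linear scale from 0), 1 point per array, with b3KOM hosts to the left of WT hosts. Points from b3KOM hosts lie above those from WT hosts for each gene, and Mpeg1 is highest in both hosts; where points coincide, 1 is visible.

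Other macrophage genes named on these arrays come from the same authors' table, so their genotype values too are descriptions. A list of 43 macrophage and monocyte genes has 20 named members, the 8 genes and 12 others, all 20 through the tumor cell table. The 12 others were all called higher in TAMs, by 3.42 to 5.11 log2 units, where 24.9% of the tested probesets were called higher. The list was drawn up with earlier results known, so nothing is read from this count. Between TAMs of the genotypes the 12 differed by -0.11 to 0.37 with a median of 0.01, and the highest was Ccr2, a chemokine receptor of monocytes, at 0.37 ± 0.18 (SE). In tumor cells all 12 were higher from b3KOM hosts, by 0.45 to 1.17 with a median of 0.66, and the highest was Pf4, the platelet factor 4 chemokine, singled out after its values were seen. Tyrobp, the DAP12 adaptor that takes part in Csf1r signaling, is the other named gene of the receptor list and differed by -0.04 ± 0.08 (SE) in TAMs and 0.88 ± 0.10 (SE) in tumor cells. Lyz2, which encodes lysozyme, and Ctss, which encodes cathepsin S, complete the lysosomal list beside Cd68, Laptm5 and Mpeg1. They were 3.42 and 3.90 log2 units above tumor cells in TAMs, less than the 8 genes, and they differed by 0.06 and -0.04 between TAMs of the genotypes and by 0.58 and 0.69 between tumor cells.

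Summed on the linear scale, the 20 named macrophage genes stood at 6.04% and 6.52% of their mean TAM sum in tumor cells from b3KOM hosts. In tumor cells from WT hosts they stood at 3.98% and 3.78%. Bright genes weigh most in such a sum, among them Lyz2, at 11.2% of its TAM level in tumor cells from b3KOM hosts. The same sum was 97.5% to 102% on the b3KOM TAM arrays and 98.7% to 102% on the WT TAM arrays. The 8 genes alone stood at 2.89% and 3.19% from b3KOM hosts and at 1.99% and 1.95% from WT hosts. Per gene, the 12 others read 3.43% to 11.2% of their TAM level in cells from b3KOM hosts and 2.35% to 7.82% in cells from WT hosts. The 3.43% was that of Ccr2, whose tumor cell means of 3.93 (b3KOM hosts) and 3.23 (WT hosts) lay below the table median of 4.19. The whole named list stood higher in tumor cells from b3KOM hosts, but a difference between the hosts was a condition of being named. It therefore adds no support to the 8 genes. Listed genes without a name could not be read, and the part of macrophage RNA in the tumor cell values was not tested. Among other cell types, Il1b is the named gene of the neutrophil list, and TAMs also express it (10.61 in b3KOM and 10.77 in WT). In tumor cells Il1b read 4.78 from b3KOM hosts and 4.02 from WT hosts. Cxcr3, the named gene of the lymphocyte list, read 5.85 in tumor cells from b3KOM hosts and 6.51 from WT hosts. In TAMs Cxcr3 read lower, at 5.1 in b3KOM and 5.54 in WT. Glycam1, a mucin-like gene of the mammary gland, read 5.66 in tumor cells from b3KOM hosts and 4.09 from WT hosts. In tumor cells from WT hosts, Il1b and Glycam1 thus lay below the table median of 4.19, a level near background. Il1b, Cxcr3 and Glycam1 too were selected on these arrays. The dendritic cell, fibroblast and endothelial lists have no named gene here.

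**Figure D4:**
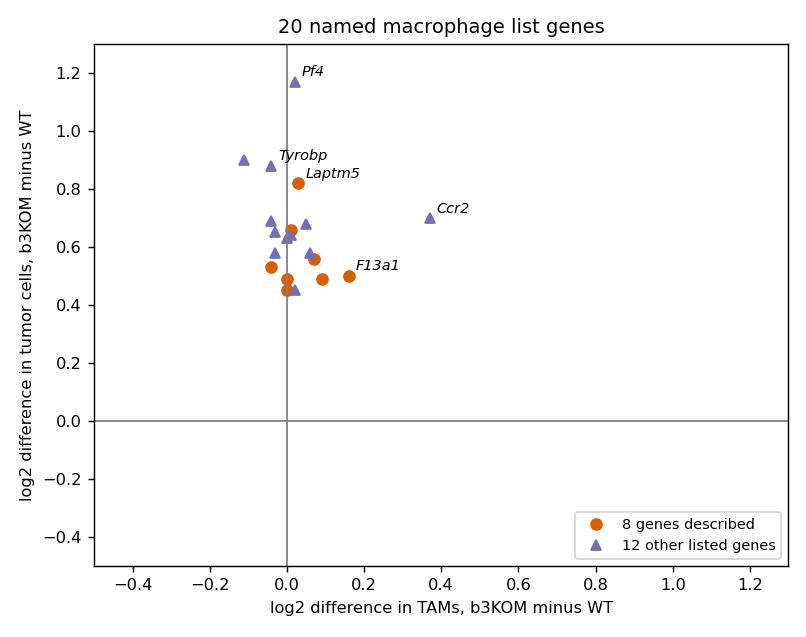
Log2 difference, b3KOM minus WT, in TAMs (x axis) and in tumor cells (y axis) for the 20 named genes of the macrophage list, with circles for the 8 genes described and triangles for the 12 others. All points lie above 0 on the tumor cell axis, the axis on which they were chosen, and between -0.11 and 0.37 on the TAM axis, with Ccr2 farthest out.

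Among the other named genes, those whose values over the 10 arrays lay closest to the mean of the 8 genes were C3ar1, Clec4n, Fcgr3, Pilra and AF251705. Closeness was measured as the root mean square gap in log2 units after each probeset's own mean was taken off, a measure that the difference between cell types dominates, and all candidates come from the authors' tables. The gap was 0.084 for C3ar1, the receptor of the complement fragment C3a, and 0.094 for Clec4n, which encodes the fungal lectin receptor dectin-2. Fcgr3, an Fc receptor for immunoglobulin G, stood at 0.115, Pilra, an inhibitory receptor of myeloid cells, at 0.129 and AF251705 at 0.129. Of the 8 genes themselves Cd68 followed their mean most closely, with a gap of 0.069, and Mpeg1 least, with 0.394. Between TAMs of the genotypes these 5 differed by -0.07 for Clec4n to 0.11 for C3ar1.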

How the data were processed

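The deposited array values are log2 units; the submitters' processing notes name RMA and Affymetrix Expression Console, with no version. Per the file headers, the authors' tables of selected genes (122 rows for TAMs, 130 for tumor cells) give a log2 fold change of WT against b3KOM, a test score (t) and a p-value read as unadjusted. Probesets were named from these tables alone. Array medians ran from 4.13 to 4.22, and the small number of arrays limits the precision. A mean for each of the 4 groups was fitted to 20246 probesets with limma 3.58.1 (lmFit and eBayes, R 4.3.3), with Benjamini-Hochberg adjustment over all of them and calls at an adjusted p under 0.05. The fit shares 1 spread between cell types, while TAM arrays had lower weights (0.495 to 0.890) than tumor cell arrays (1.47 to 1.75) when weights were estimated. The code was tested on simulated data. The 8 genes, the 11 gene lists and the promoter search were chosen with earlier results of these data known. All 8 genes are named, with the 5 nearest other genes. Of each list every named gene is given or, beyond 5, up to 4 by size of the difference between cell types. Of the other macrophage list genes, Ccr2 and Pf4 were singled out for the highest genotype difference in TAMs and in tumor cells. Symbols and promoters were matched to RefSeq (GRCm38.p6). Tried as alternatives were no filter, a stricter filter, cyclic loess, median centring, an intensity trend with robust fitting, array weights, 1 cell type or host genotype alone, and leaving out each array. The labels give no batch, so none could be fitted.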

Additional observations from a re-analysis of the deposited data

How the results depend on the processing

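All 8 genes stayed called higher in TAMs than in tumor cells under each of 18 alternatives, and 0 of 8 were called between TAMs of the genotypes under each of 17, a count that the authors' selection may have fixed. The median TAM minus tumor cell difference was 5.77 with cyclic loess, 5.62 with median centring, 5.20 within b3KOM hosts and 5.77 within WT hosts, against 5.52. Cyclic loess put the median of all tested probesets at 0.03, against -0.14, and the share of calls that were higher in TAMs at 51.6% (45.0% with median centring), against 37.7%. The tumor cell level relative to TAMs had a median of 2.30% (b3KOM) and 1.49% (WT) with cyclic loess and 2.52% and 1.72% with median centring, and when 1 array was left out it lay between 2.55% and 2.90% (b3KOM) and between 1.83% and 1.90% (WT). Without 1 array, the median b3KOM minus WT difference in tumor cells lay between 0.48 and 0.55, and the TAM difference minus it between -0.56 and -0.42, where the lone array left in a group is assumed to vary like the others. Cd68 changed sign in TAMs without b3KOM replicate 1 (-0.04) or WT replicate 2 (-0.01), over a range of -0.04 to 0.06. Mpeg1 did so without WT replicate 3 (0.05), over a range of -0.09 to 0.05. Csf1r and Unc93b1, at 0 with all arrays, ran from -0.04 to 0.04 and from -0.02 to 0.03 without 1 array. None of these genes was ever called between TAMs of the genotypes. Counts of calls over all probesets depended on the setting. Between TAMs of the genotypes the 3 calls became 9 with the stricter filter, 9 with trend and robust fitting, 0 on TAM arrays alone, and 0 to 5 without 1 array. Between tumor cells the 2 calls became 30 with array weights, 17 with trend and robust fitting, 8 with the stricter filter, 0 on tumor cell arrays alone, 0 with no filter, and 0 to 2 without 1 array. For the difference between those, the count was 11 with trend and robust fitting against 0. The cause of these moves was not tested. No paired analysis was possible because the labels give no replicate numbers shared between groups. In tumor cells the levels of Itgam and F13a1, close to the table median, limit what the arrays resolve.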
